A study of Mus musculus with 12 samples.

Results

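Megf11, Eln, Kit and Mest are 4 genes that the study labels as melanotrope genes. They were chosen here as not following the GL insertion of Pax7 in AtT-20 cells that express Q- isoforms. Kit and Mest still differed in the direction of the genes that follow GL, with no overlap between the libraries of the groups, as given below. They were taken by name from a table of 16385 genes, and all 4 passed the filter on low values that left 12578 genes for testing. The values that chose them are their levels in Pax7 Q-GL- against Pax7 Q-GL+ cells, so that pair of groups is described below with no test. AtT-20 is a mouse pituitary tumor line labelled as corticotrope. Pax7 is the paired and homeodomain transcription factor that gives melanotropes of the intermediate pituitary their identity, and splicing adds or omits a glutamine (Q) or 2 residues, glycine and leucine (GL), within its paired domain.

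RNA-Seq was analysed for 12 libraries, 2 in each of 6 groups: Pax3, the paralog of Pax7, the Pax7 isoforms Q-GL-, Q-GL+ and Q+GL+, Pax7-465, a mutant cut after residue 465, and NoTag, a Pax7 whose isoform the labels do not give. For the stable populations the methods describe a retroviral vector with the CMV promoter, a 3xFlag tag at both ends of the protein, and pools of many Geneticin-resistant colonies, so a group is a mixed population and not 1 clone. How the NoTag construct differs from these is not described beyond its label. No group without an introduced Pax factor was analysed here. Values are FPKM, fragments scaled to the length of the transcript and to the library total, and differences are log2 fold changes on the log2(FPKM + 1) scale from 1 limma fit, which understates the change of low genes. A gene passed the test where its Benjamini-Hochberg adjusted p over the 12578 genes was under 0.05.

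The cells were checked first. The level of the whole Pax7 gene does not show which isoform a group holds or where a mutant ends. Mean Pax7 was 94.6, 103 and 101 FPKM in the Q-GL-, Q-GL+ and Q+GL+ cells, 111 FPKM in Pax7-465, 158 FPKM in NoTag and 0.160 FPKM in Pax3. Tbx19, the T-box factor of corticotropes and melanotropes, had group means of 116 to 141 FPKM. Of other cell types, 2 of 6 fibroblast markers were analysed and summed to at most 1.07 FPKM in any library, 1 of 4 endothelial markers was at most 0.150 FPKM, 1 of 5 blood and immune markers at most 0.658 FPKM, and 1 of 4 skeletal muscle markers at most 1.25 FPKM. Of other pituitary hormone cells, 3 of 9 markers summed to 4.14 to 9.12 FPKM, with Lhb at 0 in all groups and Gata2 lower in Q-GL- cells against Q-GL+ (-0.66, limma adjusted p = 0.027), and 2 of 5 stem and glial cell markers to 3.03 to 5.09 FPKM. The part of these markers in the results was not tested. The NoTag libraries stood apart: their summed FPKM was 627305 to 666609 against 413794 to 483161 in the other 10 libraries, 733 genes had a value above 0 in both NoTag libraries alone, and the small nuclear RNA Rn7sk took 13.7 to 14.8% of their sum against 6.93 to 9.27%. Comparisons with NoTag are therefore kept apart.

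The members have little in common by function. Megf11 is a transmembrane receptor with EGF-like repeats, related to Draper of flies and known from the spacing of retinal neurons. Eln encodes tropoelastin, the soluble precursor that is cross-linked into elastic fibres. Kit is the receptor tyrosine kinase for stem cell factor and is known from melanocytes, germ cells and blood progenitors, and Mest is an imprinted gene, expressed from the paternal allele, for a protein of the alpha/beta hydrolase fold.

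The genes lie on 3 chromosomes of GRCm38 (mm10), by the GENCODE M21 annotation. Megf11 (ENSMUSG00000036466) spans 324 kb at chr9:64385626-64709205 on the plus strand, with 25 exons in its longest coding transcript and a product of 1095 residues. Eln (ENSMUSG00000029675) spans 44.7 kb at chr5:134702593-134747323 on the minus strand, with 37 exons and 860 residues. Kit (ENSMUSG00000005672) lies on the same chromosome at chr5:75574916-75656722 on the plus strand, spans 81.8 kb and has 21 exons and 979 residues. Mest (ENSMUSG00000051855) spans 24.9 kb at chr6:30723547-30748465 on the plus strand, with 13 exons and 342 residues.

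Mest shares its locus with other transcripts. The last part of the gene overlaps Copg2, a coatomer subunit gene at chr6:30747554-30896794 on the minus strand. The reads were mapped as strand-specific, but the strand setting of the counting is not given in the sources used here, so reads of the overlap cannot be assigned with certainty. Copg2 lay between 29.0 and 41.2 FPKM over the 12 libraries and passed the test in none of the 7 comparisons without NoTag (limma adjusted p at least 0.88), while Mest passed in 2 of them. The hairpin of miR-335 lies in an intron of Mest, intron 2 or 3 depending on the transcript, and its 2 mature RNAs are shown here as the small RNAs that this locus encodes. RefSeq gives their sequences on GRCm38.p6 at chr6:30741314-30741336 for the 5p arm and chr6:30741354-30741375 for the 3p arm, on the plus strand, with capitals for the seed, bases 2 to 8.

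mmu-miR-335-5p: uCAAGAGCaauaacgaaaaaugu

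mmu-miR-335-3p: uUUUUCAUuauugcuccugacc

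The arms have different seeds. The libraries analysed here give no value for either arm.

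Kit was lower and Mest higher in Pax3 than in the mean of the Pax7 Q- groups, and each passed the limma test. Against Pax7 Q+GL+ neither gene passed. In NoTag, also Pax7, Kit and Mest were each higher than in Pax3. The promoters of these members are shown because of the first of these comparisons. Both were read from RefSeq on GRCm38.p6, plus strand, as bases before the start site outside annotated exons, with capitals for each TAAT (ATTA on the printed strand), the letters that homeodomains commonly bind. For Kit the stretch is chr5:75574737-75574915, and for Mest it is chr6:30737800-30738049. Both genes have further promoter entries, which are not printed. Among them is a separate Mest entry at chr6:30733256-30733505, with 1 TAAT.

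Kit: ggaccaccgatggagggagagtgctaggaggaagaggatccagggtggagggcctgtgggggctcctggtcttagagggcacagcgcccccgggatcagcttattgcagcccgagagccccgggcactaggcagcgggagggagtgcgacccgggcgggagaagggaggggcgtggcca

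Mest: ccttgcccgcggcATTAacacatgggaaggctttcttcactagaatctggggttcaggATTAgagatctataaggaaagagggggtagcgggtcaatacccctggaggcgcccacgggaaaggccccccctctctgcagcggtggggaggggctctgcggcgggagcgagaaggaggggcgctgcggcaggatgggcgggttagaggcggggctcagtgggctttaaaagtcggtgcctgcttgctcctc

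The Mest stretch held TAAT 237 and 192 bases before the start. Over the 250 bases before the start, the Kit promoter, 70.8% G and C, held no TAAT on either strand, and neither promoter held GTCAC, a core of paired domain sites. Of 32851 promoters of that length, 54.9% held TAAT on either strand and 39.8% held GTCAC. Eln and Megf11 were not matched in the promoter table.

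Megf11 and Mest were the most abundant members. Megf11 was at 80.3 and 92.2 FPKM in the Q-GL- libraries, 93.4 and 90.7 in Q-GL+, and 60.8 and 58.6 in Q+GL+. In Pax3 it was at 71.4 and 79.2 FPKM, in Pax7-465 at 99.2 and 111, and in NoTag at 132 and 124. From the lowest mean the order was Q+GL+, Pax3, Q-GL-, Q-GL+, Pax7-465 and NoTag, and among neighbours in that order the libraries of Q-GL- and Q-GL+ alone overlapped.

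Eln was found at lower levels and in a similar order without NoTag. It was at 12.9 and 15.6 FPKM in Q-GL-, 16.4 and 16.1 in Q-GL+, and 9.44 and 9.92 in Q+GL+. Pax3 had 15.0 and 14.3 FPKM, Pax7-465 had 21.2 and 20.8, and NoTag had 14.8 and 15.2. Q+GL+ was lowest and Pax7-465 highest, with no overlap with the next group on either side. Between them, Q-GL-, Pax3 and NoTag overlapped, and Q-GL+ was above all of these.

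Kit was the least abundant member. Its levels were 5.77 and 5.88 FPKM in Q-GL-, 4.55 and 5.03 in Q-GL+, and 4.28 and 5.18 in Q+GL+. They were 3.22 and 3.30 FPKM in Pax3, 5.68 and 5.21 in Pax7-465, and 12.1 and 11.6 in NoTag. Pax3 lay under all other groups and NoTag above them, and the 4 groups between lay within 4.28 to 5.88 FPKM, where Q+GL+ and Q-GL+ overlapped.

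Mest had its highest levels in NoTag and Pax3. The libraries held 84.9 and 76.2 FPKM in Q-GL-, 69.8 and 62.8 in Q-GL+, and 75.3 and 77.5 in Q+GL+. They held 97.7 and 100.4 FPKM in Pax3, 68.9 and 71.0 in Pax7-465, and 135 and 138 in NoTag. The lowest mean was that of Q-GL+, which overlapped with Pax7-465, and Q+GL+ overlapped with Q-GL-.

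**Figure D1:**
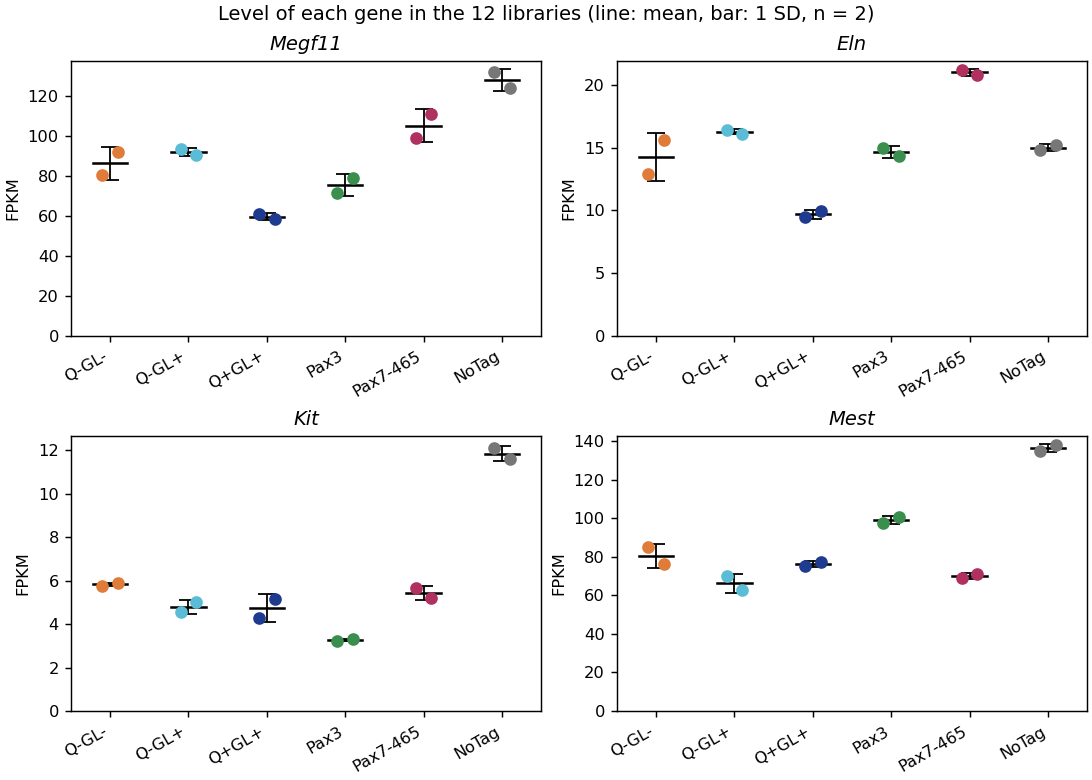
Level of Megf11, Eln, Kit and Mest in FPKM (vertical axes, each from 0) in the 12 libraries by group (horizontal axes); points are libraries, lines are means and bars are 1 SD (n = 2). Megf11 and Eln are lowest in Q+GL+ (59.7 and 9.68 FPKM), Kit is lowest in Pax3 (3.26 FPKM), and Mest in Pax3 (99.1 FPKM) lies above the other groups except NoTag.

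In the pair of groups that chose the members, the log2 difference of Q-GL- minus Q-GL+ was -0.10 for Megf11, -0.19 for Eln, 0.24 for Kit and 0.28 for Mest. Both Q-GL- libraries lay above both Q-GL+ libraries for Kit and for Mest, the direction of the genes that follow GL, while those of Megf11 overlapped and those of Eln had the opposite order. At the edge of the choice, Mest at 0.28 was the member nearest to the melanotrope genes that follow GL, of which Timp2, an inhibitor of metalloproteinases, was the nearest at 0.90. Those 5 genes, Pcsk2, Timp2, Mybpc1, Oacyl and Ttyh1, were at 0.90 to 1.37 (largest for Mybpc1, a myosin-binding protein). Of all genes tested, 4.17% passed in this pair. The 5 genes served as a comparison below, and they too were chosen on this pair.

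Q+GL+ was first set against the mean of both Q- groups, a mean that does not depend on the difference that chose the members. The groups differ in the glutamine, and 1 of the Q- groups also lacks GL. Megf11 and Eln were lower in Q+GL+ cells. Megf11 fell by 0.57 on the log2 scale (SE 0.08, limma adjusted p = 0.0042), from means of 86.3 ± 8.42 and 92.1 ± 1.91 FPKM in the Q- groups to 59.7 ± 1.54 (SD, n = 2 each). Eln fell by 0.60 (SE 0.08, limma adjusted p = 0.0029), from 14.3 ± 1.96 and 16.3 ± 0.248 to 9.68 ± 0.342 FPKM. In these bulk libraries, fewer cells that express a gene and less RNA per cell cannot be told apart. The other members did not pass: Kit was at -0.14 (95% interval -0.32 to 0.05, limma adjusted p = 0.57) and Mest at 0.06 (-0.08 to 0.21, 0.78). Thus 2 of 4 members passed, where 0.867% of all genes tested did. The members were chosen with earlier results of these data known, so such shares, here and below, are not a test of them. The study reports most melanotrope genes as preferentially activated in Q+GL- over Q+GL+ cells. That is another contrast, of GL within Q+ cells, and no group labelled Q+GL- was analysed here. The Megf11 call was lost without Q+GL+ replicate 1 (limma adjusted p = 0.063) and without replicate 2 (0.068), and the Eln call without Q+GL+ replicate 1 (0.065), each at a log2 fold change of -0.60 to -0.54.

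Q+GL+ was then set against Q-GL+, which by their labels differ in the glutamine alone, with GL in both. Each isoform has its own pool of cells, so the glutamine and the pool cannot be told apart. The study describes the effect of Q on the transcriptome as marginal. The mean of Megf11 was 0.652 of the Q-GL+ level on the fitted scale (log2 fold change -0.62, SE 0.09, limma adjusted p = 0.0069), and that of Eln was 0.618 (-0.69, SE 0.09, 0.0035). Kit was at -0.02 (95% interval -0.23 to 0.20, limma adjusted p = 0.97). Mest was at 0.20 (0.03 to 0.37, 0.29), and its Q+GL+ libraries lay above both Q-GL+ libraries without passing. These 2 of 4 members passed beside 0.962% of all genes. The Q-GL+ libraries are also in the pair that chose the members, so this comparison is not independent of the choice. Without Q+GL+ replicate 2, Q-GL+ replicate 1 or Q-GL+ replicate 2, Megf11 no longer passed (limma adjusted p = 0.082, 0.085 and 0.062), and without Q-GL+ replicate 1 neither did Eln (0.050, not under the threshold).

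Pax3, which lacks the C-terminal sequences particular to Pax7, was next set against the mean of the Q- groups, and here the other members differed. The study describes Pax3 as Q+GL-. By that description Pax3 also differs from the Q- groups in the glutamine, and from Q-GL+ and Q+GL+ in GL. Kit was lower in Pax3, at 3.26 ± 0.0593 FPKM against 5.82 ± 0.0741 in Q-GL- and 4.79 ± 0.340 in Q-GL+ (SD, n = 2), a log2 fold change of -0.56 (SE 0.09, limma adjusted p = 0.0076). Mest was higher, at 99.1 ± 1.90 FPKM against 80.6 ± 6.20 and 66.3 ± 4.94, a log2 fold change of 0.44 (SE 0.07, limma adjusted p = 0.0078). Megf11 did not pass at -0.24 (95% interval -0.41 to -0.07, limma adjusted p = 0.18), and neither did Eln at -0.05 (-0.21 to 0.12, 0.85). These were 2 of 4 members, beside 1.78% of all genes. The Kit call was lost without Pax3 replicate 1 (limma adjusted p = 0.084), while that of Mest held without each of the 6 libraries in turn.

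Between Pax3 and Pax7 Q+GL+, Eln passed, at 14.7 ± 0.493 against 9.68 ± 0.342 FPKM (log2 fold change 0.55, SE 0.09, limma adjusted p = 0.033), where 0.262% of all genes did. This call is not firm: it was lost without any 1 of the 4 libraries (limma adjusted p = 0.074 to 0.22), and in 5 of 10 other settings, among them a fit without the NoTag libraries (0.070). Mest stood at 0.37 (95% interval 0.20 to 0.54, limma adjusted p = 0.088), Kit at -0.42 (-0.64 to -0.21, 0.14) and Megf11 at 0.33 (0.13 to 0.52, 0.21), with no overlap between the libraries of the groups in any of the 4 genes.

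Pax7-465 lacks the end of the C-terminus with the OAR motif, and the supplement of the study describes its mutants as Q+GL-, which the labels do not state. By that description Pax7-465 differs from Q+GL+ in GL as well as in the C-terminus, and from the Q- groups in the glutamine as well. Against the mean of the Q- groups none of the 4 members passed the limma test, where 2 of 12578 genes (0.0159%) did. At an unadjusted p under 0.05 there were 2 members, beside 7.22% of all genes. Eln was at 0.44 (95% interval 0.28 to 0.61, limma adjusted p = 0.096) and Megf11 at 0.23 (0.07 to 0.40, limma adjusted p = 0.54). Kit was at 0.04 (-0.15 to 0.22) and Mest at -0.06 (-0.21 to 0.09). Against Q+GL+ the same genes were higher in Pax7-465. Eln was at 21.0 ± 0.276 against 9.68 ± 0.342 FPKM, a 2.06-fold difference on the fitted scale (log2 fold change 1.04, SE 0.09, limma adjusted p = 1.0e-04). Megf11 was at 105 ± 8.25 against 59.7 ± 1.54 FPKM, 1.75-fold (0.80, SE 0.09, 8.5e-04). Both calls held in all 10 other settings and without each of the 4 libraries, beside 1.33% of all genes. Kit was at 0.17 (95% interval -0.04 to 0.39, limma adjusted p = 0.50) and Mest at -0.13 (-0.30 to 0.04, 0.54).

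Pax7-465 against Pax3 was the only comparison without NoTag in which all 4 members passed, where 1.16% of all genes did. Kit was higher in Pax7-465 by 0.60 on the log2 scale (SE 0.10, limma adjusted p = 0.011), Eln by 0.49 (SE 0.09, 0.019) and Megf11 by 0.48 (SE 0.09, 0.026). Mest was lower, at -0.50 (SE 0.08, limma adjusted p = 0.0088), with 69.9 ± 1.53 FPKM against 99.1 ± 1.90 in Pax3. No libraries of the groups overlapped in any member. Comparisons that name the same group share its libraries, so these calls are not independent of those of Pax3 and Pax7-465 above. With only these 4 libraries in the fit, none of the 4 passed. Without Pax3 replicate 1 only Mest did, without Pax3 replicate 2 Megf11, Kit and Mest did, without Pax7-465 replicate 1 only Megf11 did, and without Pax7-465 replicate 2 none did (limma adjusted p = 0.057 to 0.17).

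**Figure D2:**
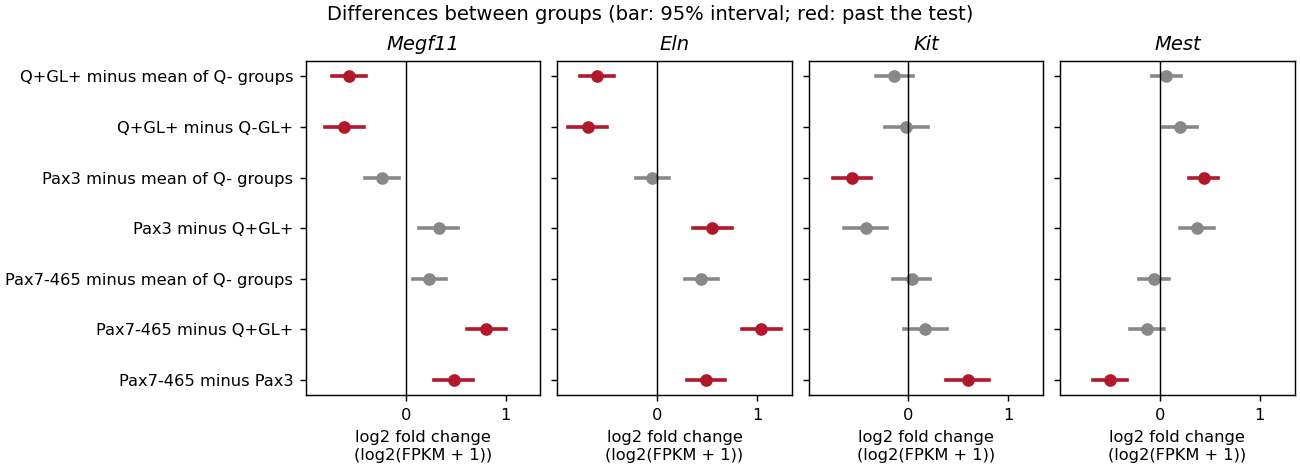
Log2 fold changes (horizontal axes, log2(FPKM + 1) scale) of the 4 genes in the 7 comparisons without NoTag (vertical axis); points are the fitted values, bars are 95% intervals, and red marks an adjusted p under 0.05. Megf11 and Eln are red and under 0 in Q+GL+ against the Q- groups (-0.57 and -0.60 against their mean) and red and above 0 in Pax7-465 against Q+GL+ (0.80 and 1.04), and Kit and Mest are red on opposite sides of 0 in both comparisons of Pax3 with the Q- groups and with Pax7-465.

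Without NoTag, the highest group mean was 1.76 times the lowest for Megf11, 2.17 for Eln, 1.79 for Kit and 1.49 for Mest. The genes that follow GL had 2.42 for Timp2 to 5.77 for Oacyl, which resembles acyltransferases, with Q-GL- highest in all 5. Since the Q- pair chose both sets, in which this ratio was 1.07 to 1.22 for the members and 1.90 to 3.10 for these genes, their spans are not compared. All 5 of these genes were lower in Q+GL+ than in the mean of the Q- groups (median log2 fold change -0.96), and all 5 were lower in Pax3 (median -0.90). That mean holds the Q-GL- libraries in which these genes were chosen as high. Against Q-GL+ alone, 2 of the 5 were lower in Q+GL+, Pcsk2 and Oacyl (median over the 5 -0.36), where Megf11 was at -0.62 and Eln at -0.69. Pcsk2 is the prohormone convertase that melanotropes use to make alpha-MSH. Against the mean of the Q- groups it was at -0.93 in Q+GL+ and at -0.40 in Pax3. Of the members that passed, Megf11 and Eln were on the side of these genes in Q+GL+ cells. In Pax3 cells Kit was on their side and Mest on the other. Differences between the members and these genes were not tested.

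In Pax7-465 none of the same 5 genes passed the limma test against the Q- mean (median 0.09), but they were not alike. Mean Timp2 and Mybpc1 were 61.3 and 8.34 FPKM, close to Q-GL- at 64.5 and 9.30. Pcsk2 and Ttyh1 were at 21.4 and 37.8 FPKM, closer to Q-GL+ at 15.8 and 29.8. Oacyl was at 7.39 FPKM, between 10.9 in Q-GL- and 4.22 in Q-GL+. All 5 were higher in Pax7-465 than in Q+GL+ (median 1.02), as were Megf11 and Eln. Against Pax3, 4 of the 5 were higher (median 1.44), and Mest was the only one among the members and these genes to be lower.

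**Figure D3:**
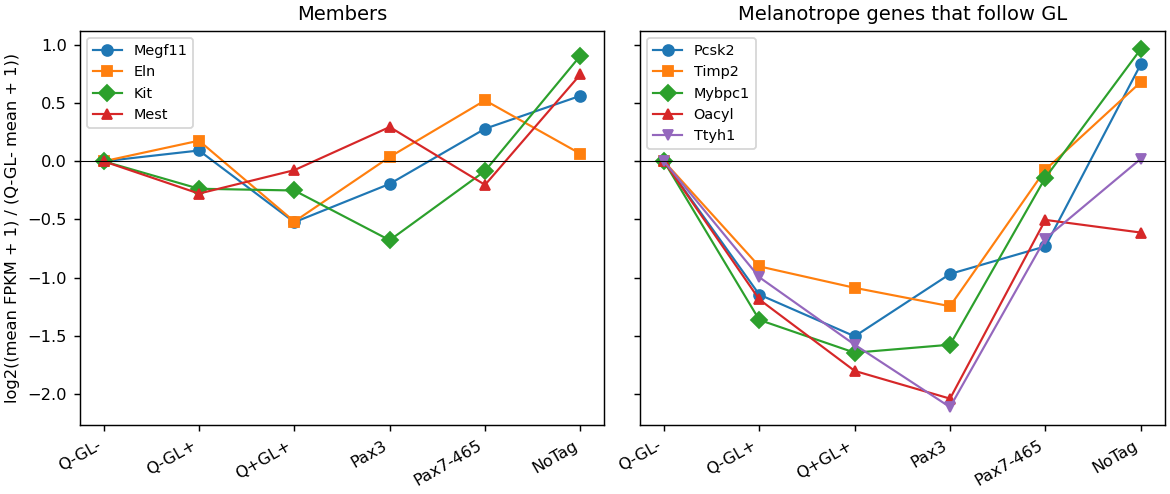
Group means of the 4 members (left) and of the 5 melanotrope genes that follow GL (right) as log2 of (mean FPKM + 1) over the Q-GL- value (vertical axis), by group (horizontal axis). The Q-GL- and Q-GL+ points chose the genes of both panels. The line at 0 is the Q-GL- value itself, so sides of 0 are not compared between the panels. In Q+GL+ and Pax3 the genes on the right are all under 0. On the left, Mest and, slightly, Eln are above it in Pax3.

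The likeness of patterns is described with Pearson's r of log2(FPKM + 1) over the 10 libraries other than NoTag, which are 5 groups of 2 and share their scaling. Megf11 and Eln had r = 0.93, which fell to 0.70 over all 12 libraries. Over the 10 libraries, Megf11 ranked in the 3 genes most like Eln among those tested. Kit and Mest had r = -0.67. Kit had r = 0.87 with Ttyh1, a membrane protein of the tweety family, 0.83 with Oacyl, 0.81 with Timp2, 0.72 with Mybpc1 and 0.46 with Pcsk2, and 0.37 with Megf11 and 0.19 with Eln. These values include the 4 Q- libraries that chose both sets of genes. Megf11 had r between 0.52 and 0.67 with the 5 genes, and Mest between -0.47 and 0.14.

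Outside the members, Nup210, a nuclear pore protein, was most like Megf11 (r = 0.96, and 0.96 over all 12 libraries), followed by Tesc, a calcium-binding protein (0.94 and 0.97), and Gabpb2 (0.94 and 0.75). Next to Eln stood Sltm (0.94 and 0.77) and Zfp750, a zinc finger protein (0.94 and 0.79). For Kit these were Rps6kc1 (0.96), 1700024P16Rik (0.94) and Dnajb4, a heat shock cochaperone (0.93), of which Rps6kc1 and Dnajb4 fell to -0.10 and 0.15 with NoTag included. Mest was most like Lrrn3, a leucine-rich repeat membrane protein (0.94 and 0.98), 1500004A13Rik (0.94 and 0.90) and Postn, which encodes periostin (0.93 and 0.97). Postn was at no more than 0.687 FPKM in the 10 libraries and passed the filter on low values only through NoTag, so its r of 0.93 rests on values near 0.

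**Figure D4:**
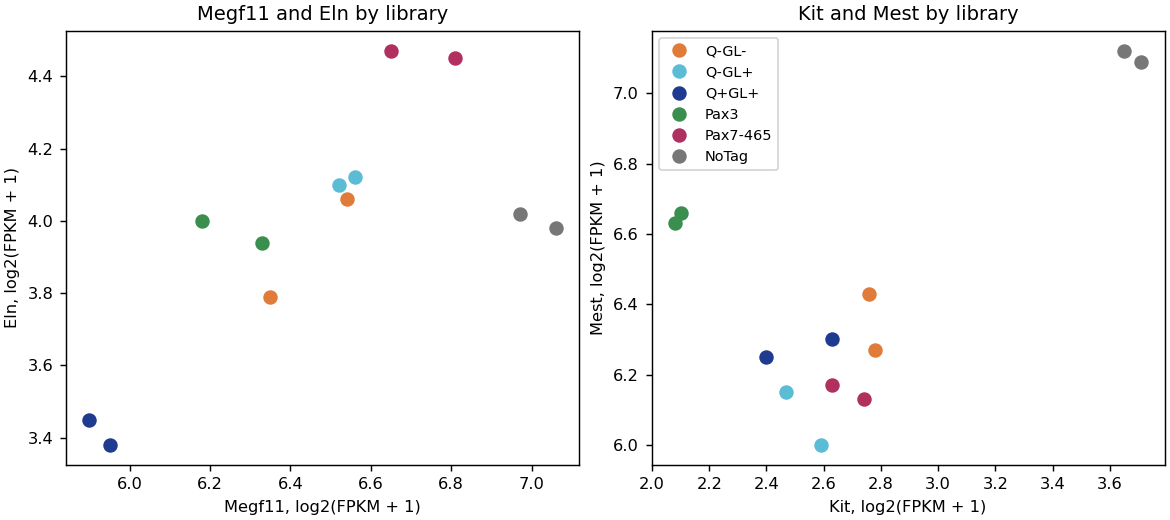
Eln against Megf11 (left) and Mest against Kit (right) in log2(FPKM + 1), 1 point for each of the 12 libraries, colored by group. Over the 10 libraries other than NoTag r is 0.93 on the left and -0.67 on the right; the NoTag points are highest in Megf11 but not in Eln on the left, and highest in both genes on the right.

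Partners of the members were read from 4 lists. Of 28 tested genes of Kit signaling, 3 passed in any of the 7 comparisons without NoTag, and 13 had an unadjusted p under 0.05. Of all genes tested, 3.54% passed in any of the 7 and 36.1% had an unadjusted p under 0.05 in any. Shc1, an adaptor between receptors and Ras, was higher in Q+GL+ than in the mean of the Q- groups (0.32, SE 0.06, limma adjusted p = 0.040) and lower in Pax7-465 than in Q+GL+ (-0.44, SE 0.07, 0.012). Along with Kit, Stat3, a transcription factor activated by kinase receptors, was lower in Pax3 than in the Q- mean (-0.42, SE 0.08, limma adjusted p = 0.019) and higher in Pax7-465 than in Pax3 (0.53, 0.013). Etv5, an Ets factor induced by MAP kinase signaling, was higher in Pax3 than in the Q- mean (0.44, SE 0.09, 0.029), opposite to Kit. Plcg1, a phospholipase that binds activated receptors, was at 0.29 in Q+GL+ against the Q- mean (0.12). The list's medians lay between -0.10 and 0.06, beside -0.03 to 0.01 for all genes tested. In Q-GL- against Q-GL+, a pair on which list genes were not chosen, 3 of 28 passed, beside 4.17% of all genes. Stat3 (0.50, limma adjusted p = 0.0080) and Fyn (0.41, 0.040), the latter named after its value was seen, were higher and Etv5 (-0.42, 0.043) lower. The ligand Kitl was not analysed here.

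None of 7 tested genes of elastic fibre assembly passed the limma test in those 7 comparisons, beside 3.54% of all genes, and 4 had an unadjusted p under 0.05, beside 36.1%. Their medians lay between -0.25 and 0.24. Tgfb3, a growth factor that latent TGF-beta binding proteins tether to elastic microfibrils, was at 0.45 in Q+GL+ against Q-GL+ (SE 0.11, limma adjusted p = 0.078), on the other side of 0 from Eln. In Pax3 against the Q- mean, Glb1 and Ctsa were at -0.28 and -0.27 (limma adjusted p = 0.15 and 0.20). Both are genes for parts of the elastin-binding complex. Ltbp3, a latent TGF-beta binding protein, was at -0.25 (0.21). In the pair Q-GL- against Q-GL+, where 4.17% of all genes passed, 3 of the 7 were higher in Q-GL-. Tgfb3 was at 6.57 ± 0.766 against 2.04 ± 0.0972 FPKM (log2 fold change 1.31, SE 0.11, limma adjusted p = 3.3e-05), Glb1 at 0.44 (0.027) and Ctsa at 0.42 (0.039). The cross-linking enzyme Lox was not analysed here.

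Of 21 tested imprinted genes, 2 passed in those comparisons, beside 3.54% of all genes, and 8 had an unadjusted p under 0.05, beside 36.1%. Rtl1, a paternally expressed gene derived from a retrotransposon, differed in the direction opposite to Mest: it was lower in Pax3 than in the Q- mean (-0.45, SE 0.06, limma adjusted p = 0.0048) and higher in Pax7-465 than in Pax3 (0.58, SE 0.07, 0.0022). It was also higher in Pax7-465 than in Q+GL+ (0.44, 0.012). Plagl1, a zinc finger factor, passed as higher in Q+GL+ against Q-GL+ (0.34, SE 0.07, 0.044). The noncoding RNA Rian and the nucleosome assembly protein gene Nap1l5 were at -0.57 and -0.24 in Pax3 against the Q- mean (0.069 and 0.075). The list's medians lay between -0.04 and 0.05. In Q-GL- against Q-GL+, 4 of 21 were higher, where 4.17% of all genes passed in either direction. These were Nap1l5 (0.51, limma adjusted p = 0.0014), Rtl1 (0.45, 0.0044), Plagl1 (0.29, 0.035) and Igf2r (0.42, 0.0071), the last named after its value was seen.

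Of the relatives and partners of Megf11, 4 were tested and none passed the limma test in those comparisons, beside 3.54% of all genes. At an unadjusted p under 0.05 there were 2, beside 36.1%. None passed in Q-GL- against Q-GL+, beside 4.17%. Megf9 was at 0.20 (limma adjusted p = 0.29) in Q+GL+ against the Q- mean, on the other side of 0 from Megf11. For Stab2 and Abca7 the smallest adjusted p was 0.64 and 0.83. The paralog Megf10 was not analysed here.

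Against NoTag a large share of all genes passed, 50.2% of all genes in the comparison with the Q- mean, 46% with Q+GL+, 47.5% with Pax3 and 45.8% with Pax7-465, and the median of all genes lay at 0.17, 0.18, 0.20 and 0.19. Relative to that median, Kit was 0.86 above the Q- mean on the log2 scale in NoTag, 0.98 above Q+GL+, 1.39 above Pax3 and 0.80 above Pax7-465. Mest was 0.72, 0.65, 0.26 and 0.77 above these groups. Kit and Mest passed in all 4 comparisons (largest limma adjusted p = 5.5e-04). Mest against Pax3 moved from 0.46 as fitted to 0.17 with quantile normalization (limma adjusted p = 0.045) and 0.24 with median centring (0.012). The introduced Pax7 was also highest in NoTag, and its part in these differences was not tested.

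Megf11 and Eln parted in NoTag. Megf11 passed in all 4 comparisons, by 0.35, 0.91, 0.57 and 0.10 relative to the median. The last of these, against Pax7-465, passed as fitted (0.29, SE 0.09, limma adjusted p = 0.021) but not after median centring (0.32), after quantile normalization (-0.01, 0.91), without Pax7-465 replicate 1 (0.16) or without NoTag replicate 1 (0.14). Eln was at 15.0 ± 0.293 FPKM in NoTag. It was higher than in Q+GL+ (0.58, SE 0.09, limma adjusted p = 2.6e-04, 0.40 relative to the median) and lower than in Pax7-465 (-0.46, SE 0.09, 0.0012, -0.65 relative to the median). Against the Q- mean it was at -0.02 (95% interval -0.19 to 0.15, limma adjusted p = 0.85), and after quantile normalization it passed as lower (-0.21, 0.047), as it did after median centring (-0.19, 0.049). Against Pax3 it was at 0.03 (-0.17 to 0.22, 0.82), and at -0.19 under either scaling, without passing.

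**Figure D5:**
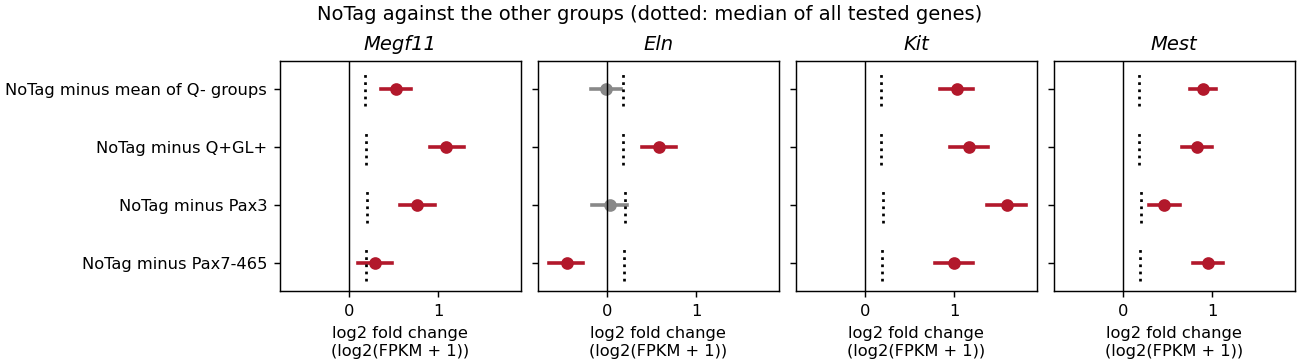
Log2 fold changes of the 4 genes in NoTag against the other groups (horizontal axes, log2(FPKM + 1) scale); points are fitted values, bars are 95% intervals, red marks an adjusted p under 0.05, and dotted lines are the median of all genes tested (0.17 to 0.20). Kit and Mest lie to the right of the dotted line in all 4 comparisons, while Eln lies to its left in 3 of them and Megf11 lies near it against Pax7-465.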

How the data were processed

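The deposited table holds FPKM values per gene, made by the authors from ribosome-depleted total RNA of AtT-20 cells: after trimming with Trimmomatic, the paired reads of stranded libraries were aligned by TopHat2 to Ensembl GRCm38 (mm10), known junctions only, and HOMER gave 1 value per gene. The versions used for these libraries, the scaling total and the strand setting of the counting are not given in the sources used here. The table holds no counts, so depth is unknown and no counting interval is given. A further 4 columns of values were not used. Groups follow the labels. No source used here states whether the 2 replicates of a group were infected or cultured separately. The p-values then cover the spread among these samples only, which may be technical.

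Values were taken as log2(FPKM + 1). Genes under 1 FPKM in all but 1 library or in all were dropped, and the other 12578 were fitted together by limma-trend (robust), with all 12 libraries and 1 coefficient for each group. Adjusted p-values are Benjamini-Hochberg within each of 11 comparisons, with a threshold of 0.05. The steps were tested on simulated data. The software was Python 3.11.15 (matplotlib 3.10.9, numpy 2.4.6, pandas 2.3.3) and R 4.3.3 (statmod 1.5.0, limma 3.58.1). The members, the genes set beside them and the gene lists were chosen with earlier results of these data known. Genes other than members were named as the up to 4 genes of each list with the smallest adjusted p without NoTag and the 3 genes with the highest r with each member. A gene that this rule names is not reported here. Alternatives were quantile normalization, median centring, a minimum of 5 FPKM, no minimum but a value above 0, a pseudocount of 0.1, fits without trend, without the robust option, without NoTag, of only the groups compared and with a replicate block, and each library left out in turn.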

Additional observations from a re-analysis of the deposited data

How the results depend on the processing

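Among settings that kept all libraries of the groups compared, the number of members past the test moved by more than 1.5 times in some comparisons. These were Pax3 against Q+GL+, in most settings, and Pax7-465 against Pax3. For Pax3 against Q+GL+ it was 1 and became 3 with quantile normalization, 2 with median centring, and 0 with no filter beyond a value above 0, without trend, without the robust option, without the NoTag libraries and with only the groups compared. For Pax7-465 against Pax3 it was 4 and became 0 with only the groups compared. With 1 library left out it was 0 to 2 for Q+GL+ against the Q- mean, 0 to 2 for Q+GL+ against Q-GL+, 1 to 2 for Pax3 against the Q- mean, 0 in each case for Pax3 against Q+GL+, and 0 to 3 for Pax7-465 against Pax3. A lone library was then assumed to vary like the other groups. The cause of these changes was not tested.

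Some signs reversed. Eln in NoTag against Pax3 was -0.19 with quantile normalization, -0.19 with median centring and -0.00 to 0.06 with a library left out, and against the Q- mean it was -0.09 to 0.05 with a library left out (lowest without Q-GL- replicate 1, highest without replicate 2). Megf11 in NoTag against Pax7-465, called at 0.29, was -0.01 with quantile normalization. Kit in Q+GL+ against Q-GL+ was -0.13 to 0.10 with a library left out, with a positive sign without Q+GL+ replicate 1 or, at 0.04, Q-GL+ replicate 2, and in Pax7-465 against the Q- mean it was -0.02 to 0.09, with a negative sign only without Pax7-465 replicate 1. Eln in Pax3 against the Q- mean was -0.11 to 0.02, positive only without Q-GL- replicate 2.

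Over all genes, the number past the test was 109 for Q+GL+ against the Q- mean (86 to 316 over the settings, 23 to 81 with a library left out), 121 against Q-GL+ (69 to 419, 19 to 41), 224 for Pax3 against the Q- mean (146 to 363, 50 to 255), 33 against Q+GL+ (9 to 133, 1 to 12), 2 for Pax7-465 against the Q- mean (0 to 20, none), 167 against Q+GL+ (59 to 409, 52 to 57) and 146 against Pax3 (55 to 280, 48 to 117).

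The labels number the replicates 1 and 2 in each group. The deviations of same-numbered libraries from their group means had correlations of -0.158 to 0.173 over 15 pairs of groups, 2 of them over 0.1, so the numbers were not taken to pair the libraries. With a replicate block 4 members passed for Pax7-465 against Pax3, and the count changed in none of the 11 comparisons. With 2 libraries a group, and no counts, the intervals rest on a spread shared over all groups.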
